A study of Danio rerio with 6 samples.

Results

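Of 32253 rows in an expression table of adult zebrafish gonads and eggs, 145 were detected in testis and all but undetected in oocytes and ovaries. A row qualified with at least 5 FPKM in both testis libraries and under 0.1 FPKM in each of the 4 oocyte and ovary libraries. FPKM counts sequenced fragments relative to transcript length and library size. The 6 libraries came from wild-type fish of the TLAB strain, with 2 of whole testis, 2 of mature oocytes and 2 of whole ovary. All fish were adult and of the same genotype, and no treatment is given. Nothing states that the libraries of a tissue came from separate fish, so their spread may be technical. The rows were selected on their FPKM values in all 6 libraries, so the gap between the tissues is given below as a description, with no test.

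A sperm moves by its flagellum, whose core, the axoneme, is a ring of microtubule doublets around a central pair. Dynein arms on the doublets drive sliding, and radial spokes and the nexin-dynein regulatory complex turn sliding into bending. Spermatocytes pair and recombine their chromosomes in meiosis before the flagellum is built, while Sertoli and Leydig cells, which are somatic, support the germ cells and make hormones. A testis therefore holds many transcripts of structures that an egg does not build.

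Markers of each tissue were read as a check of the labels. The Leydig cell hormone insl3 had 976 and 1899 FPKM in testis replicates 1 and 2, against at most 4.84 in any oocyte or ovary library. The egg coat gene zp3b had 6.87 and 6.89 FPKM in testis, 52.7 and 34.4 in oocytes, and 1609 and 2445 in ovaries. The follicle cell aromatase CYP19A1 had 0.0645 and 0.0413 FPKM in testis, 0.285 and 0.0471 in oocytes, and 4.65 and 11.5 in ovaries. Not all markers followed the labels. The egg coat gene zp2.2 had 1.70 and 1.29 FPKM in testis, 11.9 and 4.41 in oocytes, and was listed at 0 in both ovaries, and the gonad gene LHX9 overlapped, with 0.0591 and 0.0367 FPKM in testis, 0.0214 and 0.0121 in oocytes, and 0.0300 and 0.0940 in ovaries. Read numbers were not given, so depth and counting error are unknown. Sums over markers of blood and of digestive tissue differed within groups. Genes of pancreas and intestine summed to 224 and 655 FPKM in testis, 8.30 and 1.60 in oocytes, and 18.8 and 218 in ovaries. Red blood cell genes summed to 31.1 and 93.1 FPKM in testis, 1.99 and 1.45 in oocytes, and 7.09 and 14.6 in ovaries.

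The 145 rows made up 3.49% of the 4158 rows at 5 FPKM or more in both testis libraries, and 0.45% of the whole table. Most were of modest level. The mean of the testis libraries was under 10 FPKM in 65, from 10 to 20 in 55, from 20 to 50 in 15, from 50 to 100 in 3, and above 100 in 7. The median of that mean was 10.8 FPKM, below the 13.6 FPKM of all rows that met the testis minimum. With rank 1 as the highest value in a library, the median rank of the 145 was 2481 in testis 1 and 2698 in testis 2. The best ranks were 41 in testis 1 (MIR92A1) and 46 in testis 2 (ENSDARG00000100156), both rows at 0 in all oocyte and ovary libraries. Among the members above 0 in some oocyte or ovary library, the best ranks were 764 and 981. As FPKM is relative to length, few fragments on a short row can give a high value. The number depends on the scale. After median-of-ratios scaling 286 rows met the rule, including all 145. Values were divided by 0.57 and 0.54 in testis and by 1.24 to 1.36 in oocytes and ovaries. No member could therefore be lost, and keeping all 145 is no sign of stability. After rows above 10000 FPKM were removed and each library was rescaled to the same sum, 199 rows met the rule, including 67 of the 145. Gene symbols were found for 122 of the 145, and 23 are known by their Ensembl ID alone.

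The rows fell into 2 classes by what oocytes and ovaries held. In 30, all 4 oocyte and ovary libraries were listed at 0. In the other 115, at least 1 of those libraries held a trace. The 30 had a median testis level of 15.0 FPKM and included all 10 members above 50 FPKM. The 115 lay between 5.41 and 33.4 FPKM, with a median of 9.73 FPKM. Of the 30, 14 carry a small RNA name, 13 have no symbol and 3 have only a clone name. No gene on a list, no pimr gene and no gene with another symbol was among them.

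The class at 0 held the highest values. ENSDARG00000100156, which has no symbol, was first, with 1516 FPKM in testis 1 and 2210.2 FPKM in testis 2. MIR92A1, the gene of a miR-92 hairpin, had 1725 and 1244 FPKM, and MIRLET7I, the gene of a let-7 hairpin, had 649 and 915 FPKM. The symbol MIR92A1 also stands on a row that is no member, with 0 and 261 FPKM in testis, 0 in both oocyte libraries, and 0 and 194 FPKM in ovaries. These are values of annotated gene rows and do not measure the mature small RNA. ENSDARG00000081342 had 624 and 912 FPKM. ENSDARG00000084033 had 379.8 and 535 FPKM. The small nucleolar RNA gene snord118a, whose product takes part in ribosomal RNA maturation, had 71.5 and 79.2 FPKM. Both testis libraries were high in each of these rows, and every oocyte and ovary library was at 0.

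Some further rows of this class were less even between the testis libraries. ENSDARG00000102007 had 51.9 FPKM in testis 1 and 116 FPKM in testis 2. One of the 8 member rows named 5S_rRNA, the small RNA of the large ribosomal subunit, had 87.6 and 40.9 FPKM, and another had 65.5 and 18.3 FPKM. Of 41 rows named U6, a spliceosomal RNA gene, 1 was a member and was nearly even, with 26.9 and 25.2 FPKM. Its values do not describe U6 as a whole. ENSDARG00000100180 had 13.1 and 36.7 FPKM, and ENSDARG00000082538 had 33.6 and 15.7 FPKM. The remaining members with small RNA names were U12 and snrnau11, genes of the minor spliceosome, and 6 more 5S_rRNA rows. The table holds 673 rows named 5S_rRNA, of which 615 were at 0 in all 6 libraries and 13 met the testis minimum. Summed over these rows, 5S_rRNA had 940 and 638 FPKM in testis, 710 and 243 in oocytes, and 30.6 and 55.1 in ovaries. In 13 of the rows, some oocyte or ovary library reached 1 FPKM. The name as a whole was thus not restricted to testis. Such near-identical copies can share reads, so the split of reads among them is uncertain.

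Values in this class repeated from row to row. In testis 1, ENSDARG00000084033 stood at 3 times and ENSDARG00000089460 at 1.5 times the 127 FPKM of ENSDARG00000084523. In testis 2, ENSDARG00000084033 stood at 6.01 times its 89.0 FPKM, and ENSDARG00000089460 had the same 89.0 FPKM. Of the 30 rows at 0, 5 shared both testis values exactly with another row of the table. The ratio of testis 2 to testis 1 was within 0.02 of 1.4, a value picked after the ratios were seen, in 9 of the 30, in 1 of the 115 rows with a trace, and in 122 (2.93%) of all 4158 rows at the testis minimum. The number of fragments behind these values is not known.

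**Figure D1:**
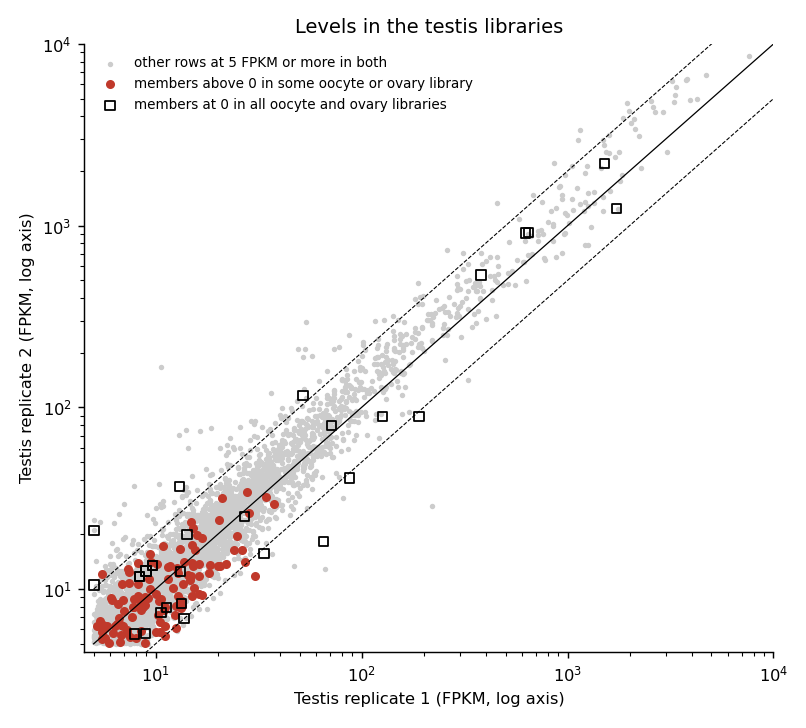
FPKM in testis replicate 1 (horizontal, log axis) and testis replicate 2 (vertical, log axis) for rows at 5 FPKM or more in both and under 10000 FPKM. Red points are the 115 members with a trace in oocyte or ovary, open squares the 30 members at 0 there, and grey points the other rows. The solid line marks equal values and the dashed lines a 2-fold difference. The squares reach above 1000 FPKM and lie outside the dashed lines in 8 of 30 cases, the red points in 3 of 115.

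Among the members with a trace, NRGN, which encodes the calmodulin-binding protein neurogranin, was highest. It had 37.6 and 29.2 FPKM in testis, 0.0630 and 0.0817 in oocytes, and 0.0657 and 0.0603 in ovaries. CYB5D1, a cytochrome b5 domain gene, had 20.9 and 31.9 FPKM in testis, 0.0858 and 0.0451 in oocytes, and 0.0832 and 0.0658 in ovaries. The genes si:zfos-405g10.4 (34.2 and 32.2 FPKM), si:dkey-151m22.8 (27.6 and 34.3 FPKM), si:ch211-135n15.3 (28.3 and 26.3 FPKM) and si:ch211-135n15.1 (24.8 and 19.6 FPKM) followed in testis. They carry only the names of genomic clones, and the last pair shares its clone. In all 6 genes each testis library was more than 100 times every oocyte and ovary library.

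Axonemal genes formed the largest named group, and theirs was also the longest list. The list of sperm flagellum and axoneme genes held 213 names and matched 152 rows. Of these, 114 were at 5 FPKM or more in both testis libraries, and 18 were members. The meiosis list held 65 names and gave 5 members from 26 rows at that minimum. Over all rows at the minimum, 3.49% were members. Outer dynein arms were represented by DNAI1, an intermediate chain, and ODAD2, of the docking complex, and their assembly by dnaaf3 and CFAP300. The nexin-dynein regulatory complex was represented by DRC1, DRC7 and iqcg, the radial spoke by RSPH3 and the central pair by spef2. CFAP43, CFAP57 and CFAP58 serve flagellar structure, ak7a and ak8 are adenylate kinases, and nme9, lrrc51, MORN5 and cimip2c complete the group. The symbol DNAI1 stands on 2 rows. The member (ENSDARG00000038788) had 7.26 and 5.92 FPKM in testis, and the other row had 44.2 and 33.8 FPKM in testis with up to 0.151 FPKM in ovary.

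The 18 axonemal members had testis means from 6.17 to 16.9 FPKM. The highest, ak7a, had 20.5 and 13.4 FPKM in testis, 0.0852 and 0.0316 in oocytes, and 0.0316 and 0.0900 in ovaries. ODAD2 had 20.1 and 13.4 FPKM in testis, 0.0948 and 0.0383 in oocytes, and 0.0440 and 0.0631 in ovaries. RSPH3 had 18.4 and 13.6 FPKM in testis, 0.0926 and 0.0734 in oocytes, and 0.0467 and 0.0726 in ovaries. In these 3 genes the lower testis library was over 100 times the highest other library. In testis 1 and 2, nme9 had 15.5 and 16.5 FPKM, CFAP58 had 18.1 and 12.2 FPKM, and lrrc51 had 14.7 and 11.3 FPKM. Of the 18 members, 16 were lower in testis 2 than in testis 1.

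**Figure D2:**
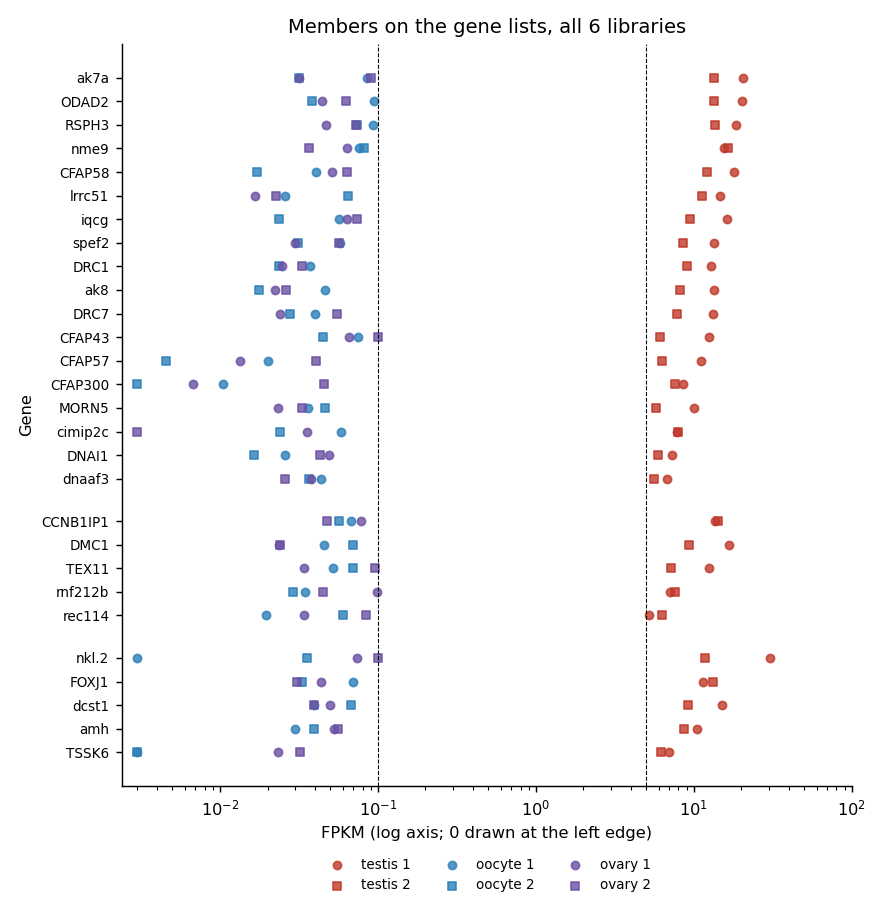
FPKM (horizontal, log axis) in each of the 6 libraries for the 28 members on a gene list, with the 18 flagellum and axoneme genes at the top, the 5 meiosis genes in the middle and the 5 others at the bottom. Red marks are testis, blue oocyte and purple ovary, circles replicate 1 and squares replicate 2, and dashed lines mark 0.1 and 5 FPKM. For most axonemal genes the square of testis 2 lies left of the circle of testis 1, while oocyte and ovary marks overlap.

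A fixed ceiling of 0.1 FPKM left out the axonemal rows with the highest testis means, of which only a part had ratios like those of the members. In 42 of the 114 axonemal rows at the testis minimum, some oocyte or ovary library reached 1 FPKM or more. Of the 114 axonemal rows at the testis minimum, 60 had a testis mean at least 50 times their highest oocyte or ovary value, which is the ratio that the limits of 5 and 0.1 FPKM imply, and 18 of the 60 were members. The rest of these 60 had a median testis mean of 28.3 FPKM. Over all 96 axonemal rows at the minimum that are not members, the median ratio was 42.8, under the 50 used here. The 3 genes that follow had higher ratios than that. SAXO2, a microtubule-binding protein of the axoneme, had 221 and 315 FPKM in testis, 0.880 and 0.709 in oocytes, and 0.605 and 1.26 in ovaries. The tektin gene TEKT1 had 63.3 and 54.3 FPKM in testis, 0.254 and 0.236 in oocytes, and 0.143 and 0.231 in ovaries. SPAG6, a central pair gene, missed the ceiling narrowly, with 30.5 and 27.2 FPKM in testis, 0.0931 and 0.0617 in oocytes, and 0.0697 and 0.106 in ovaries. All 3 exceeded the testis level of most members.

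The same held over the whole table. Of the 4128 rows at the testis minimum with a value above 0 in some oocyte or ovary library, 284 reached 50-fold, and 115 of them were members. The largest ratio of any of the 4128 rows was 517. The median of the highest oocyte or ovary value in rows at 50-fold was 0.0571 FPKM for testis means of 5 to 10 FPKM, 0.0976 for 10 to 20, 0.191 for 20 to 50, 0.347 for 50 to 100 and 1.43 above 100 FPKM. The ratio itself had a median between 142 and 223 in each of these ranges. None of the 44 rows at 50-fold with a testis mean of 50 FPKM or more was under 0.1 FPKM in all 4 libraries. Among the 115 members with a trace, the ratio had a median of 179 and ran from 67.8 to 517. The ovary mean was above the oocyte mean in 56 of them and below it in 59.

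**Figure D3:**
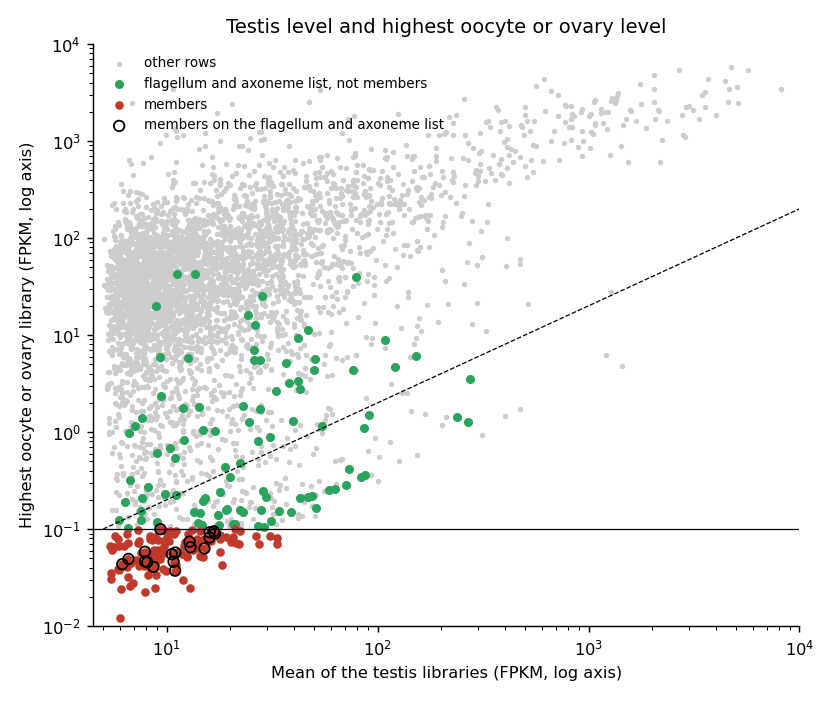
Mean FPKM of the testis libraries (horizontal, log axis) and the highest FPKM in any oocyte or ovary library (vertical, log axis) for rows at 5 FPKM or more in both testis libraries, above 0 in some oocyte or ovary library and under 10000 FPKM on both axes. Red points are members, black rings mark the 18 axonemal members, green points are other axonemal rows and grey points the remaining rows. The solid line is 0.1 FPKM and the dashed line a 50-fold ratio. The lower edge of the cloud climbs with the testis level, so that no row above 33.4 FPKM lies under the solid line.

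Meiosis was represented by 5 members of 44 matched rows, 26 of which met the testis minimum. CCNB1IP1, a crossover factor, had 13.7 and 14.2 FPKM in testis, 0.0680 and 0.0571 in oocytes, and 0.0785 and 0.0474 in ovaries. The meiotic recombinase DMC1 had 16.7 and 9.31 FPKM in testis, 0.0458 and 0.0694 in oocytes, and 0.0238 and 0.0242 in ovaries. Its spread between the testis libraries was larger than that of CCNB1IP1. TEX11, which acts in chromosome synapsis and crossover formation, had 12.5 and 7.19 FPKM in testis. The crossover factor rnf212b had 7.02 and 7.55 FPKM, and rec114, needed for the breaks that start recombination, had 5.18 and 6.25 FPKM. Other genes of chromosome pairing exceeded the ceiling. SYCP3, of the axial element, had 68.4 and 63.8 FPKM in testis, 0.521 and 0.438 in oocytes, and 0.270 and 0.356 in ovaries.

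The last 5 listed members came from 5 lists. FOXJ1, the row matched to foxj1a and a regulator of motile cilia genes, had 11.5 and 13.2 FPKM in testis, 0.0698 and 0.0332 in oocytes, and 0.0433 and 0.0309 in ovaries. Its paralogue foxj1b was just outside the rule, with 5.59 and 4.9997 FPKM in testis, 0.0417 and 0.0122 in oocytes, and 0.0127 and 0.0598 in ovaries. The sperm membrane gene dcst1, whose product acts in sperm-egg binding, had 15.0 and 9.19 FPKM in testis, and TSSK6, a testis-specific serine kinase, had 6.93 and 6.24 FPKM. Their lists were divided. On that of TSSK6, sperm ion channels and signalling, both testis libraries were above all oocyte and ovary libraries in 5 of 18 rows. In 7 of the 18 they were below all of them. On that of FOXJ1, spermatid gene regulation and chromatin, they were above in 14 of 33 rows and below in 7. On that of dcst1, they were above in all 6 rows. Over the whole table, 31.8% of rows were above. The Sertoli cell hormone amh had 10.4 and 8.65 FPKM in testis, 0.0298 and 0.0392 in oocytes, and 0.0526 and 0.0561 in ovaries. It was the sole member among 40 matched rows of the Sertoli and Leydig list. In whole tissue, a larger share of a cell type and more RNA per cell cannot be told apart.

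The antimicrobial peptide gene nkl.2, on the white blood cell list, had 30.3 and 11.8 FPKM in testis, 0 and 0.0355 in oocytes, and 0.0741 and 0.0999 in ovaries. The whole white blood cell list summed to 114 and 98.7 FPKM in testis, 32.5 and 37.7 in oocytes, and 20.7 and 18.4 in ovaries. The part of white blood cells in the nkl.2 level was not tested. The lists of spermatogonia, red blood cells, muscle, liver, pancreas and intestine, kidney and neurons held no member.

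Some members not on the lists have known ciliary roles too. Those named here were picked after their values were seen, and they do not describe the unlisted members as a whole. The kinesin gene kif9, of the central pair, had 24.1 and 16.5 FPKM in testis, and agbl2, a tubulin carboxypeptidase, had 16.2 and 13.7 FPKM. Both genes of the basal body orientation factor were members, bbof1a with 12.2 and 10.1 FPKM and bbof1b with 10.6 and 8.82 FPKM. CFAP68, a cilia and flagella associated protein, had 12.6 and 8.11 FPKM. The ankyrin repeat genes are named as a family and not for a ciliary role. ANKAR (27.2 and 14.1 FPKM), ANKEF1 (13.6 and 10.7 FPKM) and ankmy1 (14.9 and 11.8 FPKM) were all lower in testis 2. A further row with the symbol ANKEF1, no member, had 0.436 and 0.278 FPKM in testis and at most 0.0397 in any other library.

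The pimr genes, a large zebrafish family of Pim-related kinases, gave 7 members from 108 rows. In testis 1 and 2, pimr184 had 20.3 and 23.9 FPKM, with 0.0586 and 0 FPKM in oocytes and 0.0670 and 0.0699 in ovaries. The other members were pimr134 (9.42 and 10.0 FPKM in testis), pimr182 (7.43 and 10.8 FPKM), pimr138 (8.89 and 8.99 FPKM), pimr124 (5.81 and 6.30 FPKM), pimr185 (6.19 and 5.77 FPKM) and pimr207 (6.71 and 5.10 FPKM). The testis mean of each was at least 89.1 times its highest oocyte or ovary value. The same direction was seen in most pimr rows that are not members, many of them at low testis levels. Of the 101 pimr rows that are not members, both testis libraries were above all 4 oocyte and ovary libraries in 95, against 31.8% of all rows of the table. In 98 of the 101, all 4 oocyte and ovary libraries were under 0.1 FPKM, against 43.4% of all rows. Both counts take in rows that were near 0 in testis too, such as pimr13, with 0.00432 and 0.0111 FPKM in testis and 0 elsewhere. Of the 108 rows, 52 were under 1 FPKM in both testis libraries, and the median testis mean was 0.911 FPKM. Few pimr rows passed the testis minimum, as was so for the table as a whole. Of the 108 rows, 9 reached 5 FPKM in both libraries, 47 reached 1 FPKM in both, and 5 were at 0 everywhere. Over the whole table, 4158 of 32253 rows reached 5 FPKM in both.

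Summed over the family, pimr rows had 210 and 227 FPKM in testis, 1.19 and 1.38 in oocytes, and 4.27 and 1.87 in ovaries. The row pimr68 made up most of the first ovary sum, with 3.60 and 3.22 FPKM in testis, 0.127 and 0.454 in oocytes, and 3.29 and 0.773 in ovaries. The 2 rows past the testis minimum that were not members were pimr201 and pimr183. In testis, pimr201 had 18.7 and 22.4 FPKM, but it had 0.159 and 0.191 FPKM in ovaries. In testis, pimr183 had 5.75 and 5.87 FPKM, but it had 0.320 and 0.242 FPKM in oocytes. The related kinase pim2 was unlike the pimr rows, with 1.76 and 1.27 FPKM in testis, 1.42 and 2.38 in oocytes, and 1.58 and 1.08 in ovaries. Copies this alike can share reads, so values of single pimr rows are uncertain.

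**Figure D4:**
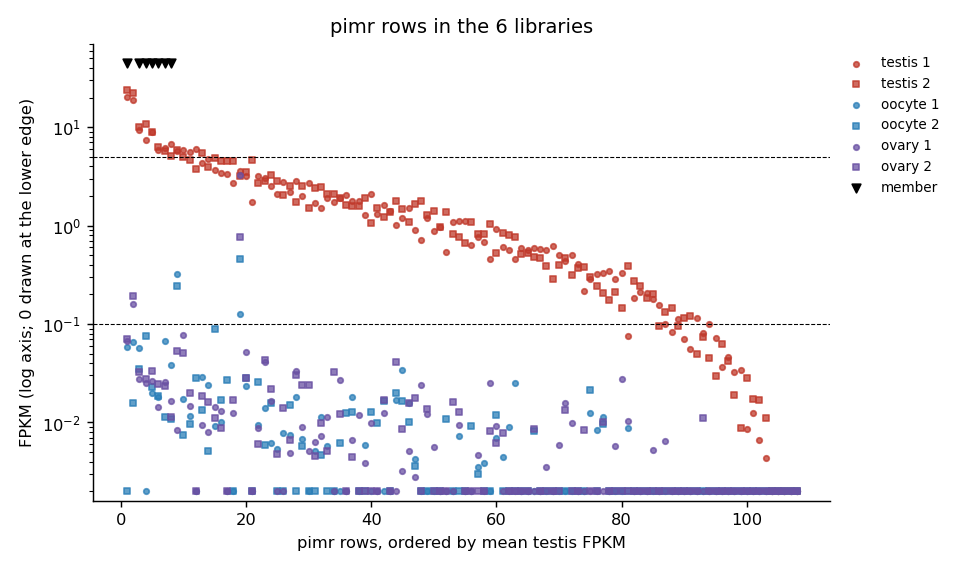
FPKM (vertical, log axis) in the 6 libraries for the 108 pimr rows, ordered by mean testis FPKM. Red marks are testis, blue oocyte and purple ovary, circles replicate 1 and squares replicate 2, triangles mark the 7 members, dashed lines mark 5 and 0.1 FPKM, and values of 0 are drawn at the lower edge. Testis marks lie above oocyte and ovary marks in 102 rows, many of them under 1 FPKM in testis.

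The testis libraries were alike over the members, but less so than over all rows at the testis minimum, which include the members. On log2(FPKM + 1), the correlation between them was 0.928 (Pearson) and 0.717 (Spearman) over the 145 rows, and 0.972 and 0.924 over all 4158, as a description across rows of the same libraries. Over the 115 rows with a trace it was 0.746 (Pearson), against 0.743 over the 2634 rows with a testis mean of 5 to 20 FPKM, but the median absolute log2 difference was 0.31 over these 115 and 0.20 over the 2634. The ranges are unlike, as 11 of the 115 had a testis mean of 20 to 50 FPKM. The median absolute log2 difference was 0.42 over all members and 0.24 over all 4158 rows. A difference of 2-fold or more was seen in 11 of 145 members (7.59%), against 4.06% of all 4158 rows. Of the 11, 8 were among the 30 rows at 0, or 26.7% of those, and 3 among the 115 with a trace. The latter share, 2.61%, was under the 4.06% of all 4158 rows.

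The widest gaps were those of ENSDARG00000087328 (5.01 FPKM in testis 1 and 21.1 in testis 2), the 5S_rRNA row at 65.5 and 18.3 FPKM, ENSDARG00000100180, nkl.2 and ENSDARG00000102007. On the log2(FPKM + 1) scale, testis 2 minus testis 1 was 1.88, -1.78, 1.42, -1.29 and 1.15 in that order. Rows both above and below equality were among them.

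The direction of the gap differed by kind of member. Over all 4158 rows at the testis minimum, 38.6% were lower in testis 2, and among the members 84 of 145 were. Of the 28 members on gene lists, 22 were lower in testis 2, with a median log2 difference of -0.49. Of the 40 with another gene symbol, 31 were lower, with a median of -0.21. Of the 33 with a clone name, 16 were lower, with a median of 0.00. Of the 23 without a symbol, 7 were lower, with a median of 0.48. The axonemal rows that met the testis minimum without being members leaned the same way as the members, with 68 of 96 lower in testis 2 and a median of -0.24. Of the 47 pimr rows at 1 FPKM or more in both libraries, 20 were lower, with a median of 0.08. Testis 2 also had the higher sums of pancreas and red blood cell genes given above, and their part in these gaps was not tested.

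**Figure D5:**
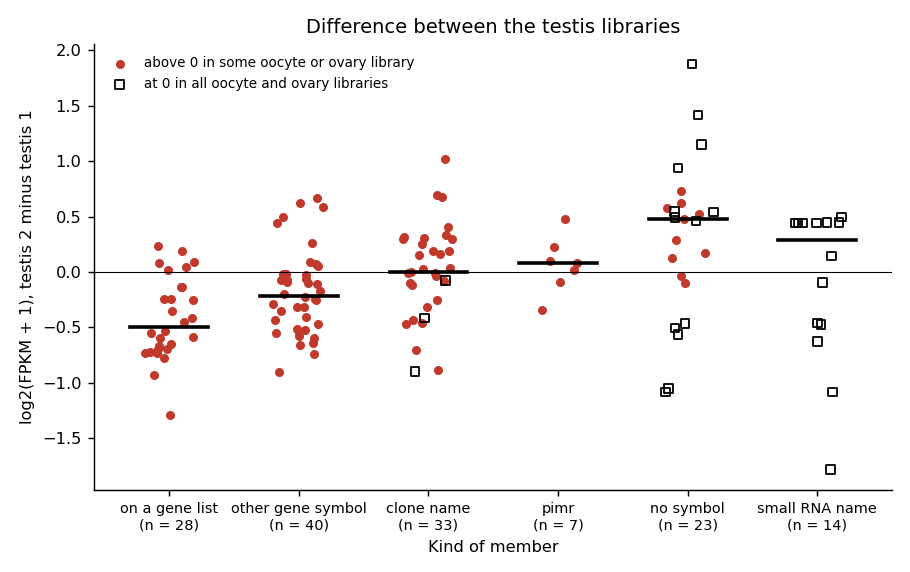
Testis 2 minus testis 1 on log2(FPKM + 1) (vertical) for each of the 145 members by kind (horizontal). Red points are members with a trace in oocyte or ovary, open squares those at 0 there, and bars are medians. Medians run from -0.49 for genes on a list to 0.48 for rows without a symbol, and 4 of the 5 widest gaps are open squares.

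The rule was also applied to 1 library of each tissue, and the rows it chose were read in the other. Rows that meet it in both readings are the 145 members by definition, so this is a description and not a separate test. The replicate 1 libraries alone chose 279 rows, of which 145 (52.0%) met the rule in the replicate 2 libraries. In testis 2, 194 of the 279 had 5 FPKM or more and 41 were at 0. The replicate 2 libraries alone chose 231 rows, of which 145 (62.8%) met the rule in replicate 1, with 159 at 5 FPKM or more and 41 at 0 in testis 1. Rows also broke the ceiling, as 220 of the 279 and 205 of the 231 were under 0.1 FPKM in the other oocyte and ovary libraries. In 10 and 8 rows those libraries reached 1 FPKM or more, with highest values of 552 and 4.3e+06 FPKM. All of the rows that were at 0 in the second testis library had a small RNA name or no symbol, with 25 and 16 in the first reading and 24 and 17 in the second. The table holds 1024 rows with a small RNA name, of which 912 were at 0 in all 6 libraries and 21 met the testis minimum.

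Gene families were split by both limits. Just inside the testis minimum, by their lower testis library, were ENSDARG00000087328 and ENSDARG00000101414 (both 5.01 FPKM), lrrc34 (5.02 FPKM), si:dkey-42p14.3 (5.05 FPKM) and pimr207 (5.10 FPKM). Just outside were foxj1b (4.9997 FPKM), si:dkey-73n10.12 (4.998 FPKM), pimr110 (4.99 FPKM), si:ch211-151h10.2 (4.96 FPKM) and B3GAT2 (4.93 FPKM). Just inside the ceiling, by their highest oocyte or ovary library, were nkl.2 (0.0999 FPKM), CFAP43 (0.0997 FPKM), si:dkey-43k4.3 (0.0987 FPKM), rnf212b (0.0984 FPKM) and bbof1a (0.0966 FPKM). Just outside were si:ch211-171b20.3 (0.1001 FPKM), pcp4l1 (0.102 FPKM), saxo4 (0.103 FPKM), SPAG6 (0.106 FPKM) and cadm3 (0.107 FPKM). The pair FOXJ1 and foxj1b, and the pair pimr207 and pimr110, were thus split by the testis minimum.

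The list genes that are not members were compared between tissues with limma over all 13717 rows at 1 FPKM or more in at least 2 libraries. A call needed a difference of at least 1 on log2(FPKM + 1), in either direction, and p under 0.05 after Benjamini-Hochberg adjustment over those rows. Of all rows tested, 16.4% were called higher and 43.8% lower in testis than in ovary, and 22.3% higher and 45.6% lower in testis than in oocyte. Of 124 axonemal rows tested, 117 were called higher in testis than in ovary, with a median difference of 3.24. Against oocyte, 114 of the 124 were called higher and 2 lower, with a median of 3.39. The median over all rows tested was -0.82 against ovary and -0.79 against oocyte. With values first divided by median-of-ratios factors, which sets the typical row equal between libraries, 30.1% of 14416 rows were called higher and 21.7% lower in testis than in ovary, and 37.1% higher and 28.0% lower in testis than in oocyte. The medians over all rows then were 0.12 and 0.25. The comparisons share the testis libraries, and a row detected in testis alone passes the filter only by being high there. Without the filter, 113 of 134 axonemal rows that are not members were called higher in testis than in ovary, and 112 higher than in oocyte. Over all 32253 rows without the filter, 6.81% were called higher in testis than in ovary and 9.32% higher than in oocyte.

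The 2 axonemal rows called lower in testis than in oocyte were CFAP298 and DNAAF10, both factors of dynein arm assembly. CFAP298 had 12.7 and 9.80 FPKM in testis and 42.5 and 34.05 in oocytes (log2 difference -1.68 ± 0.25 SE, limma adjusted p = 0.000925). DNAAF10 had 12.6 and 14.8 FPKM in testis and 27.8 and 42.3 in oocytes (-1.27 ± 0.30 SE, limma adjusted p = 0.00782). Neither testis pair overlapped its oocyte pair, but with median-of-ratios scaling 0 axonemal rows were called lower in testis than in oocyte.

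Meiosis genes were more divided than axonemal genes. Of 37 tested rows that are not members, 22 were called higher and 4 lower in testis than in ovary, and 24 higher and 8 lower in testis than in oocyte. As shares of the 37, the lower calls were 10.8% and 21.6%, under the 43.8% and 45.6% of all rows tested. With median-of-ratios scaling, 3 were called lower in testis than in oocyte. Without the filter on low values, 22 of 39 were called higher and 3 lower in testis than in ovary. Against oocyte, 24 of these 39 were called higher and 8 lower. The lower calls were 7.69% and 20.5% of the 39. Over all 32253 rows without the filter, 17.7% were called lower in testis than in ovary and 18.8% lower than in oocyte. SYCP3 was higher in testis than in ovary by 5.68 ± 0.17 (SE, limma adjusted p = 8e-06). The A-type cyclin gene CCNA1 had 11.3 and 10.9 FPKM in testis, 1232 and 1268 in oocytes, and 527 and 458 in ovaries. The difference between testis and ovary was -5.34 ± 0.20 (SE, limma adjusted p = 1.1e-05). Of the 21 tested Sertoli and Leydig rows that are not members, 12 were called higher and 3 lower in testis than in ovary, and 14 higher and 3 lower in testis than in oocyte. Without the filter, 12 of 39 such rows were called higher and 2 lower than in ovary, and 14 higher and 2 lower than in oocyte.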

How the data were processed

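The deposited table gives FPKM values made by the authors, 1 column for each of the 6 libraries. Per the labels' protocols, DNase-treated TRIzol RNA was made into strand-specific TruSeq libraries and read in pairs. The submitters' processing notes name TopHat, Bowtie2, Cuffnorm and GRCz10, and their settings are not given in the sources used here. An FPKM of 0 can be a failed estimate.

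The rule, ranks and replicate differences were computed in Python 3.11.15 with pandas 2.3.3. Logs used log2(FPKM + 1). Symbols came from a table of gene IDs, which matched 26411 of 32253 rows (81.9%), and synonyms and gene types from RefSeq GRCz12tu. That build differs, so no coordinates are given. Tests used limma 3.58.1 in R 4.3.3 (eBayes with trend), on all 6 libraries with a mean per tissue. The code was also run on simulated rows with tissue differences removed and known changes added to testis. That run does not bear on the filter or on the scale between tissues. The tests were added to the planned descriptions.

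The members, gene lists and tests were chosen with earlier results of these data known. The genes named are the 20 highest by testis mean, all members on a list (values for up to 6 a list or those among the 100 highest), the 5 rows on each side of each limit, the 5 widest replicate gaps, and families of related members. Other genes named were picked after their values were seen. Alternatives were other limits, other scalings and leaving out each library.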

Additional observations from a re-analysis of the deposited data

How the results depend on the processing

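The number of rows, 145, followed the limits by construction. It was 511, 310 and 57 with a testis minimum of 1, 2 and 10 FPKM, 66 and 355 with a ceiling of 0.05 and 0.5 FPKM, and 30 with a ceiling of 0. It was 236 with the minimum set on the testis mean, 286 after median-of-ratios scaling, 199 after rescaling to 1000000, and 279 and 231 in the replicate 1 and 2 libraries alone. Without 1 library in turn it ran from 150 to 220, the highest without testis 2 (205 without testis 1). In the order 1, 2 and 10 FPKM, ceilings of 0.05, 0.5 and 0, testis mean and median-of-ratios scaling, the median testis level was 3.12, 5.88, 17.9, 9.59, 12.6, 15.0, 9.62 and 13.9 FPKM, and the median rank (2717 over both libraries) was 6256, 4231, 1722, 2932, 2334, 2007, 3540 and 3520. Rescaling gave 13.3 FPKM and rank 5117. Without 1 library the medians ran from 10.0 to 11.4 FPKM and from rank 2532 to 2727. The share at 0 in all oocyte and ovary libraries, 20.7%, was 12.3% and 12.9% at a minimum of 1 and 2 FPKM, 45.5%, 8.45% and 100% under ceilings of 0.05, 0.5 and 0, 36.9% for the testis mean and 13.3% after median-of-ratios scaling, and ran from 19.9% to 32.7% without 1 library. The correlation between the testis libraries was -0.13 with the minimum on the testis mean, which admits rows at 0 in 1 library, and 0.916 to 0.928 without an oocyte or ovary library. Of 210 combinations of result and alternative, 160 stayed within the limits set. That total pools the members with the calls over other rows, most of which stayed within. For the number, median level, median rank and share at 0 of the members, most alternatives fell outside. The limits were 1 SD between the testis libraries for the median level and rank, a factor of 1.5 for counts and replicate measures, and the exact binomial 95% interval of 14.4% to 28.2% for the share at 0. That interval treats rows as independent, though some shared their testis values exactly. It served as a limit of size only and measures no spread between libraries.

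Of the listed rows that are not members, 117 of 124 axonemal rows were called higher in testis than in ovary (108 to 117 without 1 library) and 114 higher than in oocyte (111 to 114). Called lower than in oocyte were 2 axonemal rows (1 to 3 without 1 library, 0 after median-of-ratios scaling) and 8 meiosis rows (6 to 8, and 3 after that scaling). Over all rows the scaling moved calls to 4341 higher and 3130 lower than in ovary, and 5349 higher and 4040 lower than in oocyte, against 2251, 6011, 3056 and 6255 on the deposited scale. With the replicate number as a block, 116 axonemal rows that are not members were called higher than in ovary and 113 higher than in oocyte. Replicate differences of equal numbers correlated at -0.21 for testis and oocyte, 0.24 for testis and ovary and -0.35 for oocyte and ovary, so the numbers were not taken to pair the libraries. The planned search of promoters for motifs was not run.

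Depth is unknown, so a value of 0 sets no limit on the level of a gene. With 2 libraries a tissue, the spread of any single row is poorly known.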

Other observations

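Rows on lists of other tissues were also described. The liver list summed to 94.2 and 119 FPKM in testis, 4.22 and 7.34 in oocytes, and 9.15 and 7.57 in ovaries, and none of its 27 matched rows was a member. Of the 27, 9 passed the filter on low values, which a row can pass through testis alone, so the calls over those 9 are not read. Without that filter, 7 of the 27 were called higher in testis than in ovary and 8 higher in testis than in oocyte (limma, adjusted p-value under 0.05 and a log2 difference of at least 1). Over all 32253 rows without the filter, these shares were 6.81% and 9.32%. Of 15 tested spermatogonia rows, 3 were called higher and 8 lower in testis than in ovary, and 3 higher and 6 lower in testis than in oocyte. Over all 13717 rows that passed the filter, 16.4% were called higher and 43.8% lower in testis than in ovary. Against oocyte, 22.3% of them were called higher and 45.6% lower. The spermatogonia counts with the filter lay near these shares. Without the filter, 3 of 25 spermatogonia rows were called higher and 7 lower in testis than in ovary. Against oocyte, 3 of the 25 were called higher and 5 lower. Over all rows without the filter, 17.7% were called lower in testis than in ovary and 18.8% lower than in oocyte. The source of the liver transcripts was not tested.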
